A study of Danio rerio with 6 samples.

Results

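The comparison described here sets *tars*-/- zebrafish embryos injected with a *gcn2* morpholino (*gcn2* MO) against uninjected sibling embryos (sibling control), to see how far knockdown of Gcn2 brought the mutant transcriptome back to normal and what was left or newly changed. It uses 2 of the 6 RNA-seq libraries of the study, and the other 4 (*tars*-/- control, *tars*-/- *perk* MO, sibling *gcn2* MO and sibling *perk* MO) serve as points of reference. All libraries were made from whole embryos at 36 hours post fertilization (hpf) that had been raised in egg water with phenylthiourea against pigmentation. The *tars*-/- embryos were homozygous for an inactivating allele of *tars*, which codes for threonyl-tRNA synthetase; the allele came from a chemical mutagenesis screen and the line is kept as heterozygotes, and the siblings came from the same litters and were labelled wild type. Each morpholino, an antisense oligonucleotide that lowers the amount of a protein, was injected at the one-cell stage, whereas both control groups were left uninjected. No library had an injected control morpholino, so injection itself and knockdown of Gcn2 cannot be told apart, and in bulk samples fewer cells of a type and less RNA per cell cannot be told apart either.

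Gcn2 is a kinase that binds uncharged tRNA and phosphorylates the translation factor eIF2alpha. This lowers protein synthesis in general but favours translation of the transcription factor Atf4, which in turn switches on genes for amino acid synthesis, amino acid transport and tRNA charging. This program is the amino acid response (AAR). Perk phosphorylates the same site of eIF2alpha during stress of the endoplasmic reticulum and can switch on part of the same genes.

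The total of gene counts was 32161970 in *tars*-/- *gcn2* MO and 39551625 in sibling control, within a range of 29949451 to 47516784 for the 6 libraries. Counts were scaled to CPM by dividing each by its library total. The 19194 of 34326 genes whose mean level reached 1 CPM were analysed. Each condition had 1 library, so no difference could be set against the spread between samples of 1 condition, and no test across conditions is given. The 95% intervals of ratios are exact Clopper-Pearson intervals and cover counting error only. The mutated gene itself followed the genotype labels. *tars* was at 21.3 CPM in *tars*-/- *gcn2* MO, 37.3 CPM in *tars*-/- control and 33.9 CPM in *tars*-/- *perk* MO, against 68.1 CPM in sibling *gcn2* MO, 95.9 CPM in sibling *perk* MO and 71.6 CPM in sibling control. The 3 mutant libraries were thus all below the 3 sibling libraries. *eif2ak4*, the gene that codes for Gcn2, was not analysed here, and a morpholino need not lower its target mRNA, so the knockdown was not checked.

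The *tars*-/- *gcn2* MO library differed from sibling control at more genes than the uninjected mutant did. Of the 19194 genes, 486 were at least 2-fold higher in *tars*-/- *gcn2* MO (2.53%) and 716 were at least 2-fold lower (3.73%), which makes 1202 apart (6.26%), while 78.4% were within 1.5-fold. In *tars*-/- control against the same sibling control library, 213 genes were at least 2-fold higher (1.11%) and 109 at least 2-fold lower (0.568%). The injected libraries were also apart from it. In sibling *perk* MO 479 genes were at least 2-fold higher (2.5%) and 1011 lower (5.27%). The counts were 442 (2.3%) and 285 (1.48%) in *tars*-/- *perk* MO, and 143 (0.745%) and 214 (1.11%) in sibling *gcn2* MO. The library nearest to *tars*-/- *gcn2* MO was not a mutant but sibling *perk* MO. Between these libraries 67 genes were at least 2-fold apart (0.349%), against 580 for sibling *gcn2* MO (3.02%), 715 for *tars*-/- *perk* MO (3.73%), 1085 for *tars*-/- control (5.65%) and 1202 for sibling control. Of the 486 genes that were higher than in sibling control, 209 were also at least 2-fold higher than in sibling *gcn2* MO and 13 than in sibling *perk* MO. Over all 19194 genes these counts were 355 and 47. Of the 716 lower genes, 139 were also at least 2-fold lower than in sibling *gcn2* MO and 10 than in sibling *perk* MO, beside 225 and 20 of all genes. Few of the genes apart from sibling control were thus also apart from a library of the other genotype with the other morpholino. These parts were still larger than over all genes, and both comparisons share the *tars*-/- *gcn2* MO library. Results below are given with the level in sibling *perk* MO where it bears on them.

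The median of AAR genes lay between sibling control and the uninjected mutant, while single members varied. Only 19 of 63 were higher in *tars*-/- *gcn2* MO than in *tars*-/- control, beside 11440 of all 19194 genes. Of 63 analysed AAR genes, 11 were at least 2-fold higher in *tars*-/- *gcn2* MO and 1 was at least 2-fold lower, beside 2.53% and 3.73% of all genes. In *tars*-/- control, 32 of the 63 were at least 2-fold higher and 0 lower, beside 1.11% and 0.568% of all genes. The median log2 ratio to sibling control was 0.43 in *tars*-/- *gcn2* MO and 1.15 in *tars*-/- control, beside 0.00 (−0.0011) and −0.11 over all genes. Against sibling *perk* MO the AAR median of *tars*-/- *gcn2* MO was 0.24. Of the 63 genes 0 were at least 2-fold apart there, near the 0.349% of all genes. Against sibling *gcn2* MO the AAR median was 0.56 with 14 genes at least 2-fold higher, beside 1.85% of all genes.

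**Figure D1:**
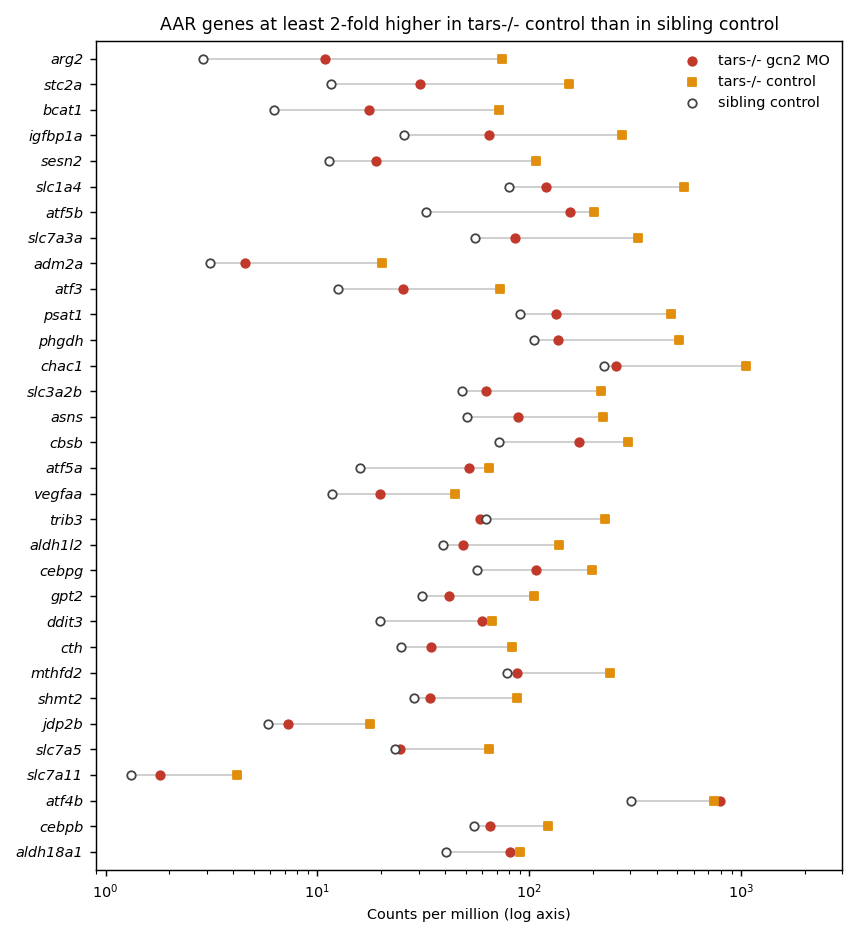
Levels (CPM, log axis) of the 32 AAR genes past 2-fold in *tars*-/- control over sibling control, with 1 point per library for *tars*-/- *gcn2* MO (filled red circles), *tars*-/- control (orange squares) and sibling control (open circles). Most red circles lie near the open circles, as for *chac1* (256 CPM against 225 CPM in sibling control), while *atf5b*, *atf5a*, *ddit3* and *atf4b* lie near or past the orange squares.

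For these 32 genes, the excess that was left was computed as the difference of *tars*-/- *gcn2* MO from sibling control over the difference of *tars*-/- control from sibling control, in CPM. The median share left was 13.6%, with 25 genes under 25% and 5 over 50%. These genes were chosen in a comparison that shares the sibling control library, so the shares are a description. *chac1*, which codes for an enzyme that breaks down glutathione, was at 256 CPM in *tars*-/- *gcn2* MO and 1051 CPM in *tars*-/- control, against 225 CPM in sibling control, which left 3.76% of the excess (95% interval 2.89 to 4.62). *trib3*, a pseudokinase gene of the feedback on Atf4, was at 58.7 CPM in *tars*-/- *gcn2* MO and 227 CPM in *tars*-/- control, against 62.5 CPM in sibling control, and was thus slightly below normal. *sesn2*, a stress-induced regulator of growth signalling, was at 18.9 CPM and 107 CPM in these mutant libraries, against 11.4 CPM in sibling control. For these 3 genes the level with *gcn2* MO was far nearer to the sibling control than to the uninjected mutant. In sibling *gcn2* MO all 3 were below sibling control, at 150 CPM for *chac1*, 40.2 CPM for *trib3* and 6.87 CPM for *sesn2*.

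Of the 15 enzymes of serine synthesis and the folate one-carbon cycle, which supply glycine and methyl groups, 7 were at least 2-fold higher in *tars*-/- control. Over all genes the share was 1.11%. Of these 7 enzymes, 5 had under 25% of the excess left and 2 over 50% (*mtr* and *shmt1*). *phgdh*, the first enzyme of serine synthesis, was at 136 CPM in *tars*-/- *gcn2* MO and 508 CPM in *tars*-/- control, against 105 CPM in sibling control. *psat1*, the next enzyme, was at 133 CPM and 463 CPM, against 90.3 CPM in sibling control. *mthfd2*, of the mitochondrial folate cycle, was at 87.3 CPM and 241 CPM, against 78.8 CPM in sibling control. These left 7.77%, 11.4% and 5.25% of the excess. Of 15 genes in this group, 1 was at least 2-fold higher in *tars*-/- *gcn2* MO (*mtr*, at 2.21-fold) and 1 was at least 2-fold lower (*mthfd1a*, at 0.128 of the sibling control level). Over all genes the shares were 2.53% and 3.73%. *mthfd1a* was low in sibling *perk* MO as well, at 1.60 CPM, against 1.80 CPM in *tars*-/- *gcn2* MO and 14.1 CPM in sibling control.

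Amino acid transporters that were high in the uninjected mutant were all far nearer to the sibling control than to the uninjected mutant. Of these, *slc7a3a* (1.56-fold, 1.47 to 1.65) and *slc1a4* (1.51-fold, 1.44 to 1.58) stayed past 1.5-fold over sibling control. Some transporters also stayed above sibling *gcn2* MO. Of the 40 analysed, 9 were at least 2-fold higher in *tars*-/- control, beside 1.11% of all genes. Each of these 9 had less than 25% of its excess left, with a median of 8.44%. Against sibling *gcn2* MO, 3 of the 40 were at least 2-fold higher in *tars*-/- *gcn2* MO, beside 1.85% of all genes. Against sibling *perk* MO 0 were (0.245% of all genes), and 33 of the 40 were higher, beside 11153 of all 19194 genes. *slc6a15*, a transporter of neutral amino acids, was at 22.4 CPM in *tars*-/- *gcn2* MO and 164 CPM in *tars*-/- control, against 25.4 CPM in sibling control. It was lower in sibling *gcn2* MO (9.38 CPM) and sibling *perk* MO (11.5 CPM). *slc7a10a*, which carries small neutral amino acids, was at 9.61 CPM and 48.6 CPM, against 9.63 CPM in sibling control. *slc38a2*, another neutral amino acid transporter, was below normal, with 79.9 CPM in *tars*-/- *gcn2* MO and 249 CPM in *tars*-/- control, against 129 CPM in sibling control, and it was also low in sibling *gcn2* MO (51.0 CPM) and sibling *perk* MO (52.9 CPM). Of all 40 transporters, 1 was at least 2-fold higher in *tars*-/- *gcn2* MO and 2 were at least 2-fold lower, near the 2.53% and 3.73% of all genes. The higher gene was *slc3a2a* (2.34-fold, 95% interval 2.23 to 2.45), and the lower genes were *slc38a3a* and *slc1a2b* (0.360 and 0.414 of the sibling control level). *slc3a2a*, the heavy chain partner of several transporters, had not been 2-fold higher in *tars*-/- control (log2 ratio 0.24), and it stood at 148 CPM in sibling *perk* MO, against 169 CPM in *tars*-/- *gcn2* MO and 72.5 CPM in sibling control.

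Of the 5 AAR genes with over 50% of the excess left, 4 code for transcription factors of the integrated stress response, and the other was *aldh18a1*, an enzyme gene of proline synthesis (82.0% left). *atf5b*, which codes for a transcription factor close to Atf4, was at 156 CPM in *tars*-/- *gcn2* MO and 201 CPM in *tars*-/- control, against 32.4 CPM in sibling control, so that 73.2% of the excess was left (95% interval 69.9 to 76.4). Its paralogue *atf5a* was at 51.6 CPM and 64.4 CPM, against 15.9 CPM in sibling control. *ddit3*, which codes for Chop, a factor tied to stress-induced cell death, was at 59.6 CPM and 66.4 CPM, against 19.8 CPM in sibling control. *atf4b* was at 792 CPM in *tars*-/- *gcn2* MO and 745 CPM in *tars*-/- control, against 303 CPM in sibling control. *atf4a* was at 708 CPM and 864 CPM, against 518 CPM in sibling control, so it was within 2-fold in both. The same factors were also high in sibling *perk* MO, at 101 CPM for *atf5b*, 37.7 CPM for *atf5a*, 40.9 CPM for *ddit3* and 620 CPM for *atf4b*. In sibling *gcn2* MO they were below the level of sibling control, at 25.4 CPM for *atf5b*, 12.2 CPM for *atf5a*, 9.19 CPM for *ddit3* and 212 CPM for *atf4b*. Against sibling *perk* MO, *atf5b* was 1.54-fold higher in *tars*-/- *gcn2* MO (1.47 to 1.61) and *ddit3* 1.46-fold (1.36 to 1.57).

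*nupr1a*, a stress-induced chromatin protein gene, was also past 2-fold, at 84.0 CPM in *tars*-/- *gcn2* MO and 37.1 CPM in *tars*-/- control, against 82.8 CPM in sibling *perk* MO and 23.0 CPM in sibling control. The 1 lower AAR gene was *igfbp1b*, at 0.435 CPM in *tars*-/- *gcn2* MO and 1.57 CPM in sibling control.

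Other AAR targets kept a ratio of 2-fold or more even though most of their excess was gone. *arg2*, a mitochondrial arginase, was at 10.9 CPM in *tars*-/- *gcn2* MO and 74.5 CPM in *tars*-/- control, against 2.88 CPM in sibling control, a ratio of 3.78 (3.05 to 4.71) with 11.2% of the excess left. *bcat1*, which acts on branched-chain amino acids, was at 17.5 CPM and 71.7 CPM, against 6.25 CPM in sibling control. *stc2a*, for the secreted glycoprotein stanniocalcin, was at 30.4 CPM and 155 CPM, against 11.6 CPM in sibling control. *igfbp1a*, which binds insulin-like growth factors, was at 64.2 CPM and 273 CPM, against 25.7 CPM in sibling control. *cbsb*, which makes cystathionine from homocysteine, was at 172 CPM and 293 CPM, against 71.6 CPM in sibling control. In sibling *perk* MO all 5 were above sibling control, at 7.51, 9.65, 16.2, 40.2 and 134 CPM, and all 5 were below *tars*-/- *gcn2* MO. Of the canonical AAR reporters, *asns* (asparagine synthetase) was 1.73-fold higher (1.63 to 1.83) and *atf3* 2.01-fold higher (1.80 to 2.25) in *tars*-/- *gcn2* MO than in sibling control, with 21.6% and 21.1% of the excess left. *vegfaa*, the main angiogenic ligand, was at 19.8 CPM in *tars*-/- *gcn2* MO and 44.8 CPM in *tars*-/- control, against 11.7 CPM in sibling control, which left 24.5% of the excess (19.0 to 30.0).

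The cytosolic aminoacyl-tRNA synthetases, the gene family of *tars*, were returned to a lesser degree. Of 21 analysed, 20 were higher in *tars*-/- *gcn2* MO (9583 of all 19194 genes were) and 4 were at least 2-fold higher (2.53% of all genes were), with a median log2 ratio of 0.80. In *tars*-/- control 13 of the 21 were at least 2-fold higher, beside 1.11% of all genes, with a median of 1.1. The median share of the excess that was left was 52.1% over these 13 genes, with 1 gene under 25% and 7 over 50%. *nars*, for the asparaginyl-tRNA synthetase, had the smallest share left (20.5%), at 229 CPM in *tars*-/- *gcn2* MO and 610 CPM in *tars*-/- control, against 131 CPM in sibling control. *aars*, for alanine, was at 378 CPM and 748 CPM, against 246 CPM in sibling control. *iars*, for isoleucine, was at the mutant level, with 169 CPM and 173 CPM, against 60.8 CPM in sibling control, and *rars*, for arginine, was higher still than in the uninjected mutant, with 80.7 CPM and 70.9 CPM, against 34.5 CPM in sibling control. *iars* and *rars* were likewise high in sibling *perk* MO, at 163 CPM and 78.3 CPM, but *nars* was at 143 CPM and *aars* at 277 CPM there. Against sibling *perk* MO the family median was 0.15 on the log2 scale and 0 genes were 2-fold apart, near the 0.349% of all genes. Against sibling *gcn2* MO it was 0.68 with 3 genes at least 2-fold higher, beside 1.85% of all genes. *tarsl2*, which codes for a Tars-like protein, was at 8.46 CPM in *tars*-/- *gcn2* MO, against 11.2 CPM in sibling control. The 15 mitochondrial synthetases had a median of 0.13, and 0 of them were 2-fold apart in either direction, beside 6.26% of all genes.

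**Figure D2:**
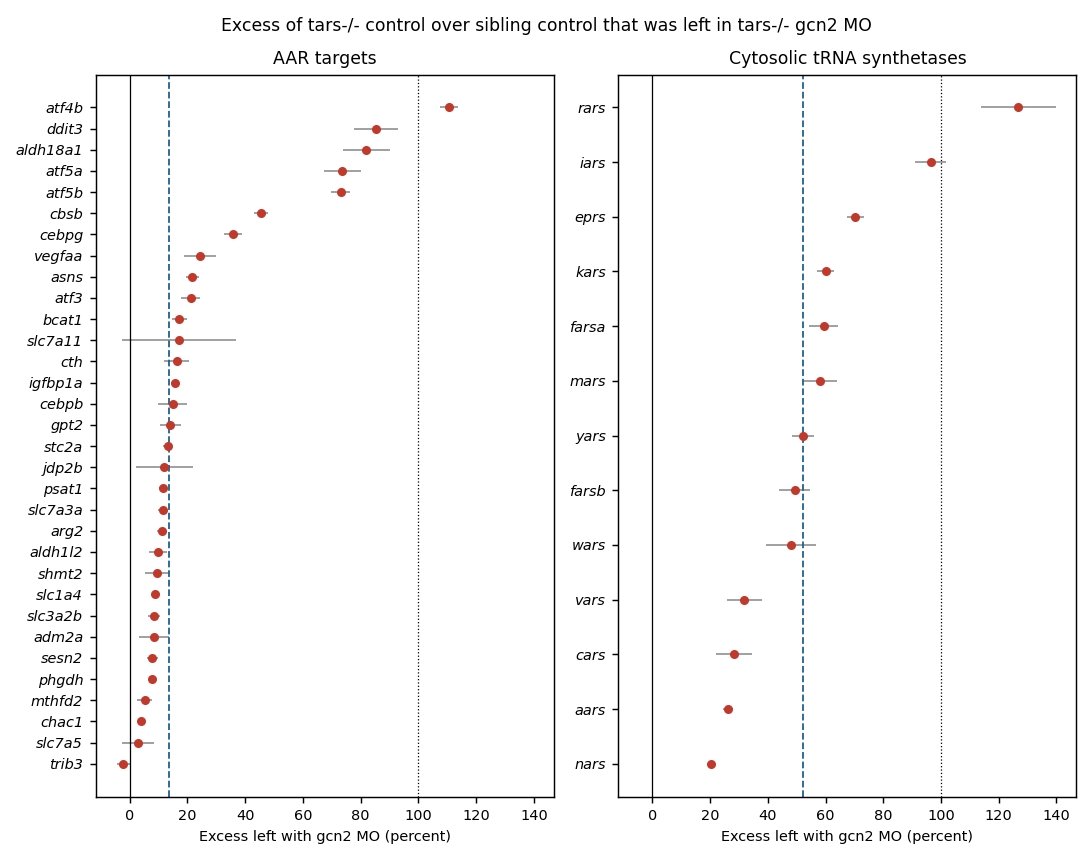
Share of the excess of *tars*-/- control over sibling control that was left in *tars*-/- *gcn2* MO, in percent, for the 32 AAR genes (left) and the 13 cytosolic tRNA synthetases (right) that were at least 2-fold higher in *tars*-/- control. Bars are 95% intervals of counting error, the solid line marks the sibling control level (0), the dotted line the uninjected mutant (100) and the dashed line the median, which is 13.6% for AAR genes and 52.1% for synthetases.

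The eIF2alpha kinases and their partners showed small differences. Of 20 genes for eIF2alpha kinases, eIF2 and eIF2B subunits and phosphatase subunits, 0 were at least 2-fold apart in *tars*-/- *gcn2* MO. Over all genes the share was 6.26%. *eif2s1b*, which codes for eIF2alpha, was at 178 CPM in *tars*-/- *gcn2* MO and 253 CPM in *tars*-/- control, against 153 CPM in sibling control, and its copy *eif2s1a* was at 51.6 CPM and 47.2 CPM, against 50.3 CPM in sibling control. *eif2ak1*, for the kinase Hri, was at 20.5 CPM and 38.6 CPM, against 20.7 CPM in sibling control, and *eif2ak3*, for Perk, was at 39.6 CPM and 39.4 CPM, against 45.0 CPM in sibling control. Of 32 ER chaperone and unfolded protein response genes, 0 were at least 2-fold higher and 1 was at least 2-fold lower, beside 2.53% and 3.73% of all genes. The lower gene was *dnajb9b*, at 2.02 CPM in *tars*-/- *gcn2* MO, against 5.99 CPM in sibling control. The median of the 32 genes was −0.45, and it was −0.31 in *tars*-/- control. In *tars*-/- *gcn2* MO 7 of the 32 were higher than in sibling control (9583 of all 19194 genes were). Against sibling *gcn2* MO the median was −0.38, with 7 genes at least 2-fold lower, beside 225 of all genes. Against sibling *perk* MO it was −0.15, with 1 gene at least 2-fold higher and 0 lower, beside 0.245% and 0.104% of all genes.

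To describe the return of the mutant profile with genes that were not chosen in either library of the comparison, mutant-raised genes were taken from pairs that share no library with it. These were the genes past 2-fold both in *tars*-/- control over sibling *gcn2* MO (339 genes, 1.77%) and in *tars*-/- *perk* MO over sibling *perk* MO (651 genes, 3.39%), and there were 169 (0.88% of all genes). In *tars*-/- *gcn2* MO over sibling control, 24 of the 169 were still at least 2-fold higher, 45 were between 1.5-fold and 2-fold higher, 74 were within 1.5-fold and 26 were at least 1.5-fold lower. Of these 26, 14 were at least 2-fold lower. Over all genes 2.53% were at least 2-fold higher, 78.4% were within 1.5-fold and 3.73% were at least 2-fold lower. The median log2 ratio of the 169 was 0.40, beside −0.0011 over all genes. It was 1.41 in *tars*-/- control over sibling control, where the *tars*-/- control library also served to choose the genes. Of the 169, 30 belonged to the AAR list, and of these 7 were still at least 2-fold higher, 7 were between 1.5-fold and 2-fold higher, 15 were within 1.5-fold and 1 was at least 1.5-fold lower. The choice is not independent of the profile described, because sibling *perk* MO was the library nearest to *tars*-/- *gcn2* MO (67 genes at least 2-fold apart). Genes low in both could enter the set and then be low here. Of the 169, 133 were at least 2-fold higher in *tars*-/- control over sibling control. Of these 133, 23 were still at least 2-fold higher and 61 were within 1.5-fold. The count of genes still at least 2-fold higher was 40 of 205 where sibling *gcn2* MO replaced sibling *perk* MO in the definition, an alternative chosen after the data had been seen.

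**Figure D3:**
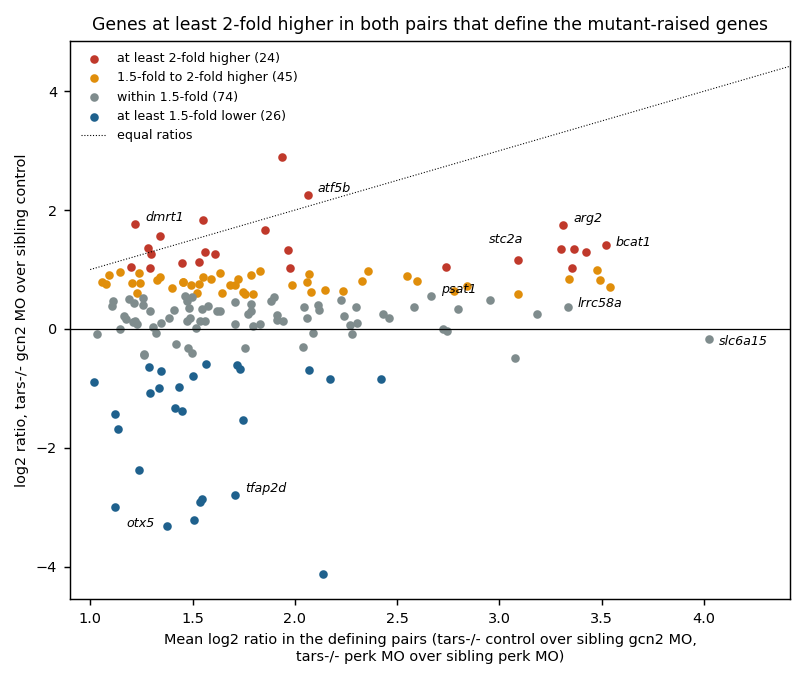
The 169 mutant-raised genes, 1 point each, with the mean log2 ratio in the pairs that define them on the x axis and the log2 ratio of *tars*-/- *gcn2* MO over sibling control on the y axis, both with 0.5 CPM added. Colours mark the 24 genes still at least 2-fold higher, 45 between 1.5-fold and 2-fold higher, 74 within 1.5-fold and 26 at least 1.5-fold lower, and most points lie below the dotted line of equal ratios.

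Among the 74 mutant-raised genes within 1.5-fold, those with the largest ratio in the defining pairs were *slc6a15*, *slc7a10a*, *phgdh*, *psat1*, *aspg*, *adm2a*, *lrrc58a*, *eef1a1a* and 2 genes with clone names. *aspg*, an asparaginase gene, was at 11.8 CPM in *tars*-/- *gcn2* MO and 60.0 CPM in *tars*-/- control, against 9.84 CPM in sibling control. *adm2a*, for the peptide adrenomedullin 2, was at 4.54 CPM and 20.1 CPM, against 3.11 CPM in sibling control. *eef1a1a*, a gene for the elongation factor that brings charged tRNA to the ribosome, was at 7.12 CPM and 40.4 CPM, against 10.2 CPM in sibling control, and was thus below normal with *gcn2* MO. The 10 mutant-raised genes that kept the largest ratio were *si:ch211-204c21.1*, *atf5b*, *plat*, *dmrt1*, *arg2*, *atf5a*, *CR381619.1*, *bcat1*, *lrmp* and *stc2a*. *plat*, for tissue plasminogen activator, was at 13.2 CPM in *tars*-/- *gcn2* MO and 15.2 CPM in *tars*-/- control, against 3.31 CPM in sibling control. *CR381619.1* was higher with *gcn2* MO (400 CPM) than in *tars*-/- control (295 CPM) or *tars*-/- *perk* MO (331 CPM), against 139 CPM in sibling *gcn2* MO, 109 CPM in sibling *perk* MO and 136 CPM in sibling control, so it followed the genotype in every library.

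A pair of these retained genes are neighbours of *tars*. In the gene order of the GRCz12tu assembly, *si:ch211-204c21.1* lies 7 genes before *tars* and *dmrt1*, a transcription factor of the gonad, lies 7 genes after it. *si:ch211-204c21.1* was at 11.2 CPM in *tars*-/- *gcn2* MO, 8.43 CPM in *tars*-/- control and 16.9 CPM in *tars*-/- *perk* MO, against 1.36 CPM in sibling *gcn2* MO, 5.18 CPM in sibling *perk* MO and 1.09 CPM in sibling control. *dmrt1* was at 5.85, 3.81 and 6.06 CPM in the same 3 mutant libraries, against 1.5 CPM in sibling *gcn2* MO, 2.1 CPM in sibling *perk* MO and 1.37 CPM in sibling control. All 3 mutant libraries were above all 3 sibling libraries for both genes, and *tars*-/- *gcn2* MO was above *tars*-/- control.

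The direct comparison with sibling *perk* MO gave the genes that separated the mutant from its nearest library. Of the 67 genes at least 2-fold apart, 47 were higher in *tars*-/- *gcn2* MO (0.245% of all genes) and 20 lower (0.104%). *tars* itself was the farthest below sibling *perk* MO of all 19194 genes, with a log2 ratio of −2.15. Of the 47 higher genes, 10 were mutant-raised, among them *dmrt1*, *si:ch211-204c21.1*, *CR381619.1*, *aspg*, *eef1a1a* and *irf3*, although the level in sibling *perk* MO also entered the choice of mutant-raised genes. *irf3*, a transcription factor of the interferon response, was at 1.99 CPM in *tars*-/- *gcn2* MO, 5.84 CPM in *tars*-/- control and 11.2 CPM in *tars*-/- *perk* MO, against 0.339 CPM in sibling *gcn2* MO, 0.334 CPM in sibling *perk* MO and 0.480 CPM in sibling control.

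Genes that were newly apart, at least 2-fold apart in *tars*-/- *gcn2* MO over sibling control and within 1.5-fold in *tars*-/- control over the same sibling control library, numbered 353 higher and 553 lower. In a pair of libraries that shares none with these comparisons, sibling *perk* MO over sibling *gcn2* MO, 329 of the 353 were also higher (8968 of all 19194 genes were) and 112 at least 2-fold higher (1.51% of all genes), and 534 of the 553 were also lower (10226 of all genes were) and 154 at least 2-fold lower (1.85%). This pair still holds sibling *perk* MO, the library nearest to *tars*-/- *gcn2* MO. The median log2 ratios of the newly apart genes to sibling control were 1.23 and −1.23 in *tars*-/- *gcn2* MO, values that the 2-fold cut largely sets. Over the same sibling control library, most of these genes also moved this way in sibling *gcn2* MO and *tars*-/- *perk* MO. The genes were chosen for their distance from that library, which favours the same direction in any library set over it. In sibling *gcn2* MO 323 were higher (9047 of all genes) and 523 lower (10147 of all genes), with medians of 0.48 and −0.59. In *tars*-/- *perk* MO 318 were higher (8270 of all genes) and 514 lower (10924 of all genes), with medians of 0.48 and −0.59.

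Genes of the DNA damage response, which act in cell cycle arrest and cell death, were in part higher. The name is a label given here to a gene list, and DNA damage was not measured. Of 33 analysed, 7 were newly higher, beside 353 of all 19194 genes. Of the 33, 10 were at least 2-fold higher in *tars*-/- *gcn2* MO and 0 were lower, beside 2.53% and 3.73% of all genes. *cdkn1a*, which codes for the cell cycle inhibitor p21, was 25.7-fold higher (21.2 to 31.6). Of the genes without clone names that averaged 5 CPM or more, it had the highest ratio, though some clone-named genes had higher ones. It was at 68.3 CPM in *tars*-/- *gcn2* MO, 7.56 CPM in *tars*-/- control and 16.6 CPM in *tars*-/- *perk* MO, against 10.8 CPM in sibling *gcn2* MO, 69.5 CPM in sibling *perk* MO and 2.65 CPM in sibling control. *mdm2*, a ubiquitin ligase gene of this response, was at 224 CPM in *tars*-/- *gcn2* MO and 34.0 CPM in *tars*-/- control, against 226 CPM in sibling *perk* MO and 28.1 CPM in sibling control. All 4 injected libraries had more *cdkn1a* and *mdm2* than both uninjected libraries, and *tars*-/- *gcn2* MO and sibling *perk* MO stood apart from the rest.

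Some proapoptotic genes were higher. *bbc3*, for Puma, was 6.16-fold higher in *tars*-/- *gcn2* MO than in sibling control (4.94 to 7.75), and *pmaip1*, for Noxa, 2.99-fold (2.11 to 4.32). *casp8*, an initiator caspase, was at 23.2 CPM in *tars*-/- *gcn2* MO, against 25.8 CPM in sibling *perk* MO and 3.99 CPM in sibling control. *phlda3*, whose product inhibits Akt, was 7.94-fold higher (6.92 to 9.15), *ccng1*, for cyclin G1, 4.44-fold (4.38 to 4.50), *gadd45aa* 3.35-fold (2.76 to 4.08) and *sesn3* 2.68-fold (2.51 to 2.86). Other members were close to normal, such as *sesn1* (1.2-fold) and *btg2* (0.793 of the sibling control level). The median over the 33 genes of this response was 0.26, so the group had a raised tail rather than a common shift. Among 33 genes of the Bcl2 family and caspases, 3 were at least 2-fold higher and 0 lower, beside 2.53% and 3.73% of all genes. The executioner *casp3a* was at 48.1 CPM in *tars*-/- *gcn2* MO, against 71.2 CPM in sibling control.

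**Figure D4:**
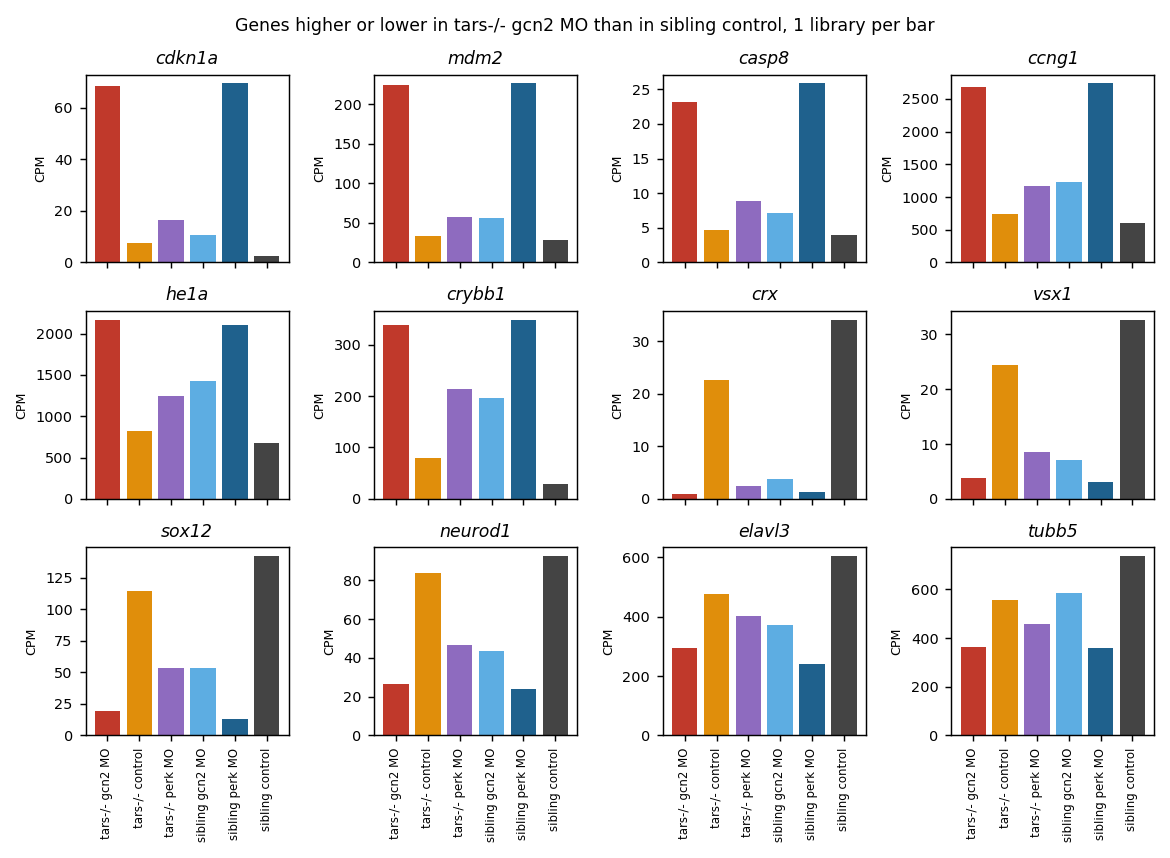
Levels (CPM, linear axis from 0) in each of the 6 libraries, 1 bar per library, for 12 genes: *cdkn1a*, *mdm2*, *casp8* and *ccng1* of the DNA damage response, *he1a* of the hatching gland, *crybb1* of the lens, and *crx*, *vsx1*, *sox12*, *neurod1*, *elavl3* and *tubb5* of the retina and nervous system. The bars of *tars*-/- *gcn2* MO and sibling *perk* MO are the highest for the first 6 genes and the lowest for the last 6, as for *crx* at 0.995 and 1.34 CPM, against 34.1 CPM in sibling control.

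Other genes with high ratios of *tars*-/- *gcn2* MO to sibling control belonged to several groups. Genes of the hatching gland, which secretes the enzymes that open the egg shell, were higher, with 4 of 7 at least 2-fold higher (2.53% of all genes were) and a median of 1.66. The proteases *he1a* and *he1b* were 3.22-fold and 3.17-fold higher, and both copies of *ctslb*, for a cathepsin of this gland, were 8.21-fold and 7.04-fold higher. Near-identical copies such as *he1a* and *he1b* or the *ctslb* pair can share reads, so the level of each copy is uncertain. *he1a* was at 2165 CPM in *tars*-/- *gcn2* MO and 823 CPM in *tars*-/- control, against 1424 CPM in sibling *gcn2* MO, 2106 CPM in sibling *perk* MO and 673 CPM in sibling control, so every injected library was higher than both uninjected ones. *ano11*, of the anoctamin family, was 17.1-fold higher (13.1 to 22.5), *rspo1*, an enhancer of Wnt signalling, 16.5-fold (11.6 to 24.2), *c6*, a complement component, 10.6-fold (8.53 to 13.2), and *optc*, for the proteoglycan opticin, 9.08-fold (7.76 to 10.7). *rspo1* was at 15.3 CPM in sibling *perk* MO, *ano11* at 30.1 CPM, *c6* at 22.3 CPM and *optc* at 22.2 CPM, against 13.7, 26.3, 25.4 and 40.9 CPM in *tars*-/- *gcn2* MO. *fip1l1a*, an mRNA 3' end processing factor, and *lnx1*, a ubiquitin ligase gene next to it in GRCz12tu, were 9.12-fold and 6.75-fold higher.

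The lens genes were higher in part and lower in part. The beta crystallins *crybb1* and *crybb1l1* were 11.5-fold (10.8 to 12.2) and 7.33-fold (7.0 to 7.67) higher in *tars*-/- *gcn2* MO, and *cryba1b* was 2.15-fold higher. *crybb1* was at 339 CPM in *tars*-/- *gcn2* MO, 80.4 CPM in *tars*-/- control and 213 CPM in *tars*-/- *perk* MO. It was at 195 CPM in sibling *gcn2* MO, 348 CPM in sibling *perk* MO and 29.6 CPM in sibling control. Sibling control thus stood below every other library, as it did for *crybb1l1*. By contrast, 16 of 41 lens genes were at least 2-fold lower, beside 3.73% of all genes, and the list median was −0.81. Of the 16, 15 were gamma M crystallins of the *crygm2d* family and 1 was *crygmx*. *crygm2d16* was at 1.12 CPM in *tars*-/- *gcn2* MO and 3.75 CPM in *tars*-/- control, against 4.81 CPM in sibling *gcn2* MO, 3.27 CPM in sibling *perk* MO and 17.3 CPM in sibling control, so that sibling control stood above every other library. The uninjected mutant was low in the lens list as well, with a median of −0.67 and 10 genes at least 2-fold lower, beside 0.568% of all genes. The list median over sibling control was −1.04 in *tars*-/- *perk* MO and −0.55 in sibling *gcn2* MO. *crygmx* was not low in the uninjected mutant, at 16.5 CPM in *tars*-/- *gcn2* MO and 54.4 CPM in *tars*-/- control, against 50.8 CPM in sibling control. The *crygm2d* genes are near-identical copies, and their separate levels are uncertain.

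Genes of the retina, the pineal organ and neurons were lower. In the retina and pineal list, 11 of 32 genes were at least 2-fold lower in *tars*-/- *gcn2* MO and 0 were at least 2-fold higher, beside 3.73% and 2.53% of all genes, with a median of −0.69, beside −0.16 in *tars*-/- control. The list was low in other injected libraries as well. Over sibling control, 9 of the 32 were at least 2-fold lower in sibling *gcn2* MO (1.11% of all genes), with a median of −0.52. In *tars*-/- *perk* MO 9 were (1.48% of all genes), with a median of −0.30. Against sibling *perk* MO the list median of *tars*-/- *gcn2* MO was 0.06 and 0 genes were 2-fold apart, near the 0.349% of all genes. *crx*, the homeobox gene of photoreceptor precursors, was at 0.995 CPM in *tars*-/- *gcn2* MO and 22.6 CPM in *tars*-/- control, against 3.87 CPM in sibling *gcn2* MO, 1.34 CPM in sibling *perk* MO and 34.1 CPM in sibling control. *nr2e3*, a nuclear receptor of photoreceptors, was at 0.684 CPM in *tars*-/- *gcn2* MO, against 13.8 CPM in sibling control, and *six7*, a homeobox gene of cones, at 0.560 CPM, against 11.3 CPM in sibling control. Both were lower still in sibling *perk* MO, at 0.234 CPM for *nr2e3* and 0.0668 CPM for *six7*. In sibling *gcn2* MO they were at 1.33 CPM and 0.311 CPM, and in *tars*-/- *perk* MO at 0.863 CPM and 0.379 CPM. *otx5* of the pineal organ and retina was at 0.0822 of the sibling control level (0.0627 to 0.106) and *vsx1* of bipolar cells at 0.119 (0.0983 to 0.143). *atoh7*, needed for retinal ganglion cells, was at 5.66 CPM in *tars*-/- *gcn2* MO, against 25.8 CPM in sibling control. *rx1*, a homeobox gene of retinal progenitors, was not low, at 31.5 CPM in *tars*-/- *gcn2* MO, against 16.9 CPM in sibling control.

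Among neuronal genes, 13 of 42 were at least 2-fold lower and 0 were at least 2-fold higher, beside 3.73% and 2.53% of all genes, with a median of −0.81, beside −0.20 in *tars*-/- control. The median over sibling control was −0.29 in sibling *gcn2* MO and −0.41 in *tars*-/- *perk* MO. Against sibling *perk* MO the neuronal median of *tars*-/- *gcn2* MO was 0.04 and 0 genes were 2-fold apart, near the 0.349% of all genes. *elavl3*, an RNA-binding protein gene of new neurons, was at 295 CPM in *tars*-/- *gcn2* MO and 475 CPM in *tars*-/- control, against 373 CPM in sibling *gcn2* MO, 240 CPM in sibling *perk* MO and 603 CPM in sibling control. *gad2*, which makes the transmitter GABA, was at 13.8 CPM in *tars*-/- *gcn2* MO, against 43.6 CPM in sibling control, and *slc17a6b*, a glutamate transporter of excitatory neurons, was at 22.7 CPM, against 45.8 CPM in sibling control. Further low ratios outside the lists were those of *sox12* (19.1 CPM in *tars*-/- *gcn2* MO, against 142 CPM in sibling control), *barhl1a* (2.05 CPM, against 19.8 CPM) and *tfap2d* (2.61 CPM, against 21.0 CPM), all transcription factor genes. In *tars*-/- control *sox12* was at 115 CPM and *tfap2d* at 21.4 CPM. *otx5*, *vsx1*, *barhl1a*, *sox12* and *tfap2d* were also counted among the mutant-raised genes, because both injected sibling libraries of the defining pairs were low. Of the neural progenitor genes 2 of 27 were at least 2-fold lower, *fabp7a* and *her4.2*, beside 3.73% of all genes, with a median of −0.24.

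**Figure D5:**
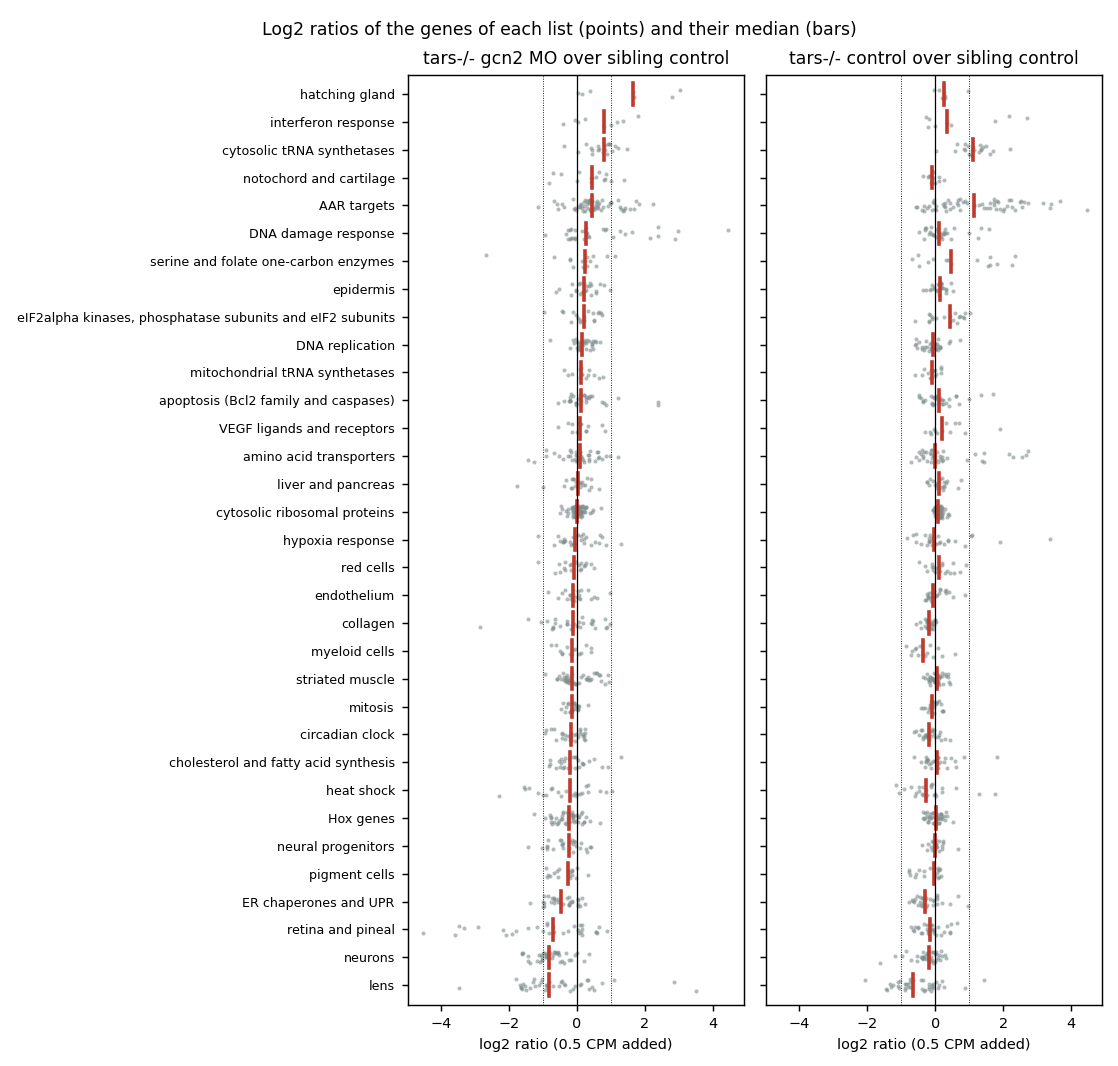
Log2 ratios of the analysed genes of all 33 lists (points, with 0.5 CPM added and spread vertically for clarity) and their medians (red bars) in *tars*-/- *gcn2* MO over sibling control (left) and *tars*-/- control over sibling control (right). Dotted lines mark 2-fold. The medians of the AAR and synthetase lists are lower on the left (0.43 and 0.80) than on the right (1.15 and 1.1), and those of neurons (−0.81) and hatching gland (1.66) lie farther from 0 on the left.

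Vascular genes showed no 2-fold difference. Of 24 endothelial genes 0 were at least 2-fold apart in *tars*-/- *gcn2* MO, and the same held for 13 VEGF ligands and receptors. Over all genes the share was 6.26%. *kdrl*, the VEGF receptor of endothelium, was at 59.7 CPM in *tars*-/- *gcn2* MO, against 47.0 CPM in sibling *perk* MO and 87.3 CPM in sibling control. *stab1*, a scavenger receptor of veins, was the highest endothelial gene at 2.01-fold in CPM (1.80 to 2.24), with a log2 ratio of 0.98 once 0.5 CPM was added.

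Among the 45 striated muscle genes, 79 cytosolic ribosomal protein genes, 34 DNA replication genes and 26 mitosis genes, 0 were at least 2-fold apart. Over all genes the share was 6.26%. The medians of these lists were −0.15, 0.01, 0.15 and −0.15. Red cell, myeloid and pigment cell markers had medians of −0.09, −0.13 and −0.25. The part that shifts in retinal, neuronal and hatching gland markers have in the results above was not tested.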

How the data were processed

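Whole embryos at 36 hpf were used for RNA-seq, with 1 library per condition. Per the submitters' notes and methods, reads were aligned to GRCz10 with HISAT2 (2.0.5) and counted per gene with HTSeq, and SAMtools (1.7) is named. The authors deposited raw read counts, gene lengths and FPKM for 34326 genes. The deposited FPKM values (per gene length and library total) were not used for ratios, only the counts. The number of embryos per library, the strand setting and the treatment of reads with several hits are not given in the sources used here.

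Counts were divided by library totals, 0.5 CPM was added before log2 ratios, and 19194 genes with a 6-library mean of 1 CPM or more were kept. With 1 library per condition, no test between conditions was run. Ratios have exact Clopper-Pearson intervals (95%, SciPy 1.17.1), and shares of excess left have delta-method intervals, both tested on simulated data and both for counting error only. Of 977 symbols in 33 lists, 949 matched and 909 gene IDs were analysed. Some genes that the naming rule or the lists would include are not reported here. Lists are described by counts past 2-fold and medians beside those of all genes. Gene order came from a RefSeq table of GRCz12tu by symbol, and no coordinates are given. Named genes were the 12 largest rises and 12 largest falls (mean of at least 5 CPM in the 2 libraries, no clone names), the 10 mutant-raised genes that kept the largest ratio, the 10 with the largest ratio in the defining pairs among those within 1.5-fold, the 10 largest newly higher and lower genes, list members past 2-fold or at the ends of a list, and genes for *tars*, eIF2alpha and its kinases. The text gives values for a selection of them. Genes named for their difference from sibling *perk* MO, and moderate list members such as *sesn1* or *slc17a6b*, were picked after their values were seen. The members and lists were chosen with earlier results of these data known. Alternatives were edgeR (4.0.16) TMM and DESeq2 (1.42.0) size factors, pseudocounts of 0.1 and 2 CPM, no abundance minimum or 5 CPM, a 1.5-fold threshold, thinning to the smallest library, and other defining pairs.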

Additional observations from a re-analysis of the deposited data

Results flagged for a closer look

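The medians of *gcn2* MO to control for the cytosolic tRNA synthetases had opposite signs in the genotypes, and that in siblings was small. Over the 21 genes, the median log2 ratio of *gcn2* MO to the uninjected control was −0.42 in *tars*-/- embryos and 0.09 in siblings. Over all genes these medians were 0.09 and −0.02. In siblings 16 of the 21 were higher with *gcn2* MO and 0 were at least 2-fold apart. The difference was not tested, and each condition had 1 library.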

How the results depend on the processing

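For the main counts and medians, 65 values under the alternatives stayed within the bounds set for an unchanged result and 18 moved, and for the other list medians and single genes 539 stayed and 77 moved. With a pseudocount of 2 CPM, 279 genes were higher and 407 lower in *tars*-/- *gcn2* MO than in sibling control, 14 mutant-raised genes were still at least 2-fold higher, and 224 and 328 genes were newly higher and lower. With a minimum mean of 5 CPM the counts were 292 higher, 456 lower, 216 newly higher and 367 newly lower. With a threshold of 1.5-fold they were 1917 higher, 2228 lower, 1608 newly higher and 1863 newly lower, and of 502 mutant-raised genes 104 were past the threshold and 222 within 1.5-fold. With mutant-raised genes taken from *tars*-/- control over sibling control, which shares a library, 63 were still at least 2-fold higher, and without sibling *perk* MO 40 were. TMM and DESeq2 scaling turned no list median round. The hypoxia list median was −0.05 (0.03 after thinning) and that of liver and pancreas 0.04 (−0.02 after thinning and −0.05 with 5 CPM), so their direction depends on the setting. Among the 57 named genes, those at least 2-fold apart kept their direction under every alternative scaling, pseudocount, minimum and thinning. Ratios under 2-fold were not counted for this, so named genes near the sibling control level could change sign. No paired analysis was possible because each condition had 1 library and the labels carry no replicate numbers, and no library could be left out of the comparison for the same reason. At these depths the ratios of genes near 1 CPM, such as *isg15* and *irf3*, had wide intervals.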

Other observations

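The heat shock genes *hsp70.1*, *hsp70.2* and *hsp70l* had their highest level in sibling control. *hsp70l* was at 7.52 CPM in *tars*-/- *gcn2* MO and 18.3 CPM in *tars*-/- control, against 3.42 CPM in sibling *gcn2* MO, 5.54 CPM in sibling *perk* MO and 38.6 CPM in sibling control. Of 24 heat shock genes, 5 were at least 2-fold lower in *tars*-/- *gcn2* MO, beside 3.73% of all genes. In the interferon response list, 4 of 9 genes were at least 2-fold higher in *tars*-/- *gcn2* MO, at low levels, beside 2.53% of all genes. The list held 28 symbols, and only these 9 genes were analysed. A gene could reach the mean of 1 CPM through the libraries where it was high, so the count is a description. The list median was 0.81, but 0.15 with no abundance minimum and 0.24 with a minimum of 5 CPM. *isg15*, an antiviral ubiquitin-like protein gene, was at 1.96 CPM in *tars*-/- *gcn2* MO and 1.89 CPM in *tars*-/- control, against 2.24 CPM in sibling *perk* MO and 0.202 CPM in sibling control.

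*apoea*, for apolipoprotein E, was at 73.8 CPM in *tars*-/- *gcn2* MO, against 80.5 CPM in sibling *perk* MO and 249.5 CPM in sibling control. In the notochord and cartilage list, 11 of 15 genes were higher in *tars*-/- *gcn2* MO than in sibling control (9583 of all 19194 genes were). Of the 15, 2 were at least 2-fold higher, beside 2.53% of all genes. The list had a median of 0.45, beside −0.09 in *tars*-/- control, 0.31 in sibling *gcn2* MO and 0.16 in *tars*-/- *perk* MO. Its genes *ta*, for Brachyury, and *ntd5* were 2.06-fold (1.85 to 2.29) and 2.68-fold (2.46 to 2.92) higher in *tars*-/- *gcn2* MO than in sibling control. *alas2*, the first enzyme of heme synthesis in red cells, was at 63.7 CPM, against 142 CPM in sibling control. *hmgcra*, the rate-limiting enzyme of cholesterol synthesis, was 2.70-fold higher (2.15 to 3.41), with 7.59 CPM in *tars*-/- *gcn2* MO and 11.1 CPM in *tars*-/- control, against 7.98 CPM in sibling *perk* MO and 2.81 CPM in sibling control. A count added after the data were seen found 37 genes (0.193% of all genes) at least 2-fold lower in both of *tars*-/- control over sibling *gcn2* MO and *tars*-/- *perk* MO over sibling *perk* MO. Of these, 33 were at least 1.5-fold higher in *tars*-/- *gcn2* MO than in sibling control. The choice favours genes high in sibling *perk* MO, the library nearest to *tars*-/- *gcn2* MO, so this count describes no return. Only 4 of the 37 were at least 2-fold lower in *tars*-/- control than in sibling control.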
